A study of Mus musculus with 36 samples.

Results

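Cardiomyocytes isolated from hearts of newborn mice were compared at 2 ages, postnatal day 4 (P4) and the day of birth (P0). The comparison covers 6 of the 36 RNA sequencing libraries of the series, 3 from P4 and 3 from P0. Genes entered it when their FPKM, a level scaled to transcript length and library size, was at least 1 in 2 or more of these 6 libraries, which held for 12239 of 36128 gene models. Both groups were uninjured myocardium of CD-1 background mice, an outbred stock, and both had their cardiomyocytes purified on Miltenyi columns, which separate cells by magnetic labelling. No transgene, drug or operation was involved in either group. The labels do not give the sex or number of mice behind a library, whether atria were included, or which sequencer ran it, and they do not say that the 3 libraries of an age came from separate animals. Whole ventricle of the same background at P4 and P0, with 2 libraries at each age, was read beside the isolated cells. For isolated cells, 2 further sets of 3 libraries shared the estimate of spread. They were collected 7 days after surgery (a sham procedure, or cutting away part of the heart). For ventricle, the spread was shared with libraries of postnatal day 7, of adults, and of hearts 1 or 7 days after sham surgery or resection.

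Cardiomyocytes of the newborn mouse still divide, and the injured heart can regrow muscle for a short time after birth. In the following days most cardiomyocytes stop dividing, exchange fetal for adult forms of contractile proteins, and turn from glucose and lactate to fatty acids as fuel. The load on the ventricle also rises at birth, and stretch is sensed in these cells by proteins of the sarcomere and by the YAP and TEAD transcription factors.

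The 3 P4 libraries had 11625, 11599 and 12079 gene models at 1 FPKM or more, and the 3 P0 libraries had 11447, 11408 and 11971. Mitochondrial transcripts took 37.0%, 36.7% and 42.4% of all FPKM in the P4 libraries, against 45.9%, 45.1% and 32.2% in the P0 libraries. Summed globin FPKM was 371, 1085 and 1655 in the P4 libraries, against 20907, 20584 and 978 in the P0 libraries, so that P0 library 3 fell among the P4 libraries and P0 libraries 1 and 2 stood apart. Xist and the Y-linked Eif2s3y were both present in all 6 isolated libraries, with Xist between 30.6 and 63.7 FPKM and Eif2s3y between 16.1 and 23.0 FPKM. In ventricle P4 library 1, Xist was 98.6 FPKM and Eif2s3y 0.184 FPKM.

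The 2 P0 libraries with high globin were also close to each other throughout. The median absolute log2 difference over genes of at least 20 FPKM was 0.0548 between P0 libraries 1 and 2, against 0.112 and 0.105 between them and P0 library 3. Between P4 libraries it was 0.200 to 0.208, and between a P4 and a P0 library 0.142 to 0.215. Whether P0 libraries 1 and 2 were separate preparations cannot be told from the labels, and without read counts their distance could not be set against counting noise, so results are also given with the pair averaged as 1 sample. The P4 libraries were thus no closer to each other than to most P0 libraries.

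**Figure D1:**
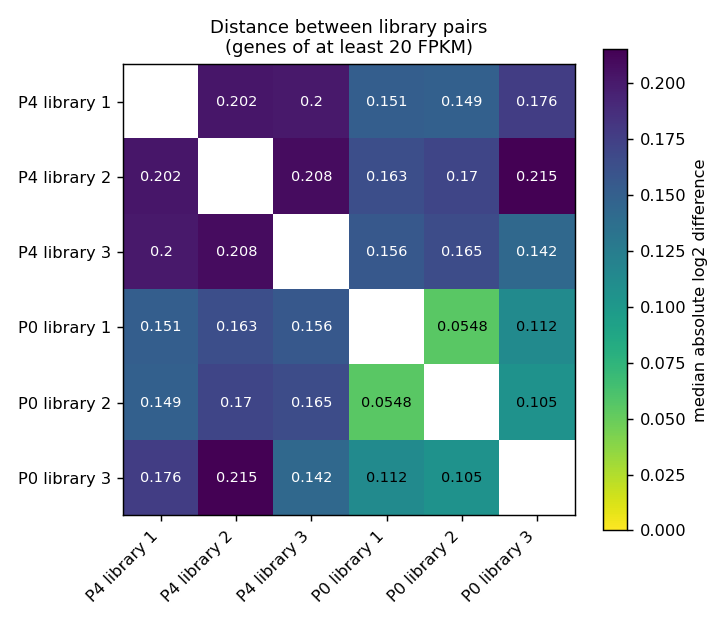
Median absolute log2 difference in FPKM between each pair of the 6 isolated cardiomyocyte libraries, over genes of at least 20 FPKM; darker cells are larger distances. P0 libraries 1 and 2 are the closest pair, at 0.0548, and pairs of P4 libraries lie at 0.200 to 0.208.

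The cells carried cardiomyocyte markers at high level at both ages. The summed FPKM of 7 markers (Myh6, Tnnt2, Actc1, Myl3, Tnni3, Ryr2 and Pln) was 14600, 17600 and 11970 in the P4 libraries, against 13000, 13360 and 16640 in the P0 libraries. Markers of other cell types varied between libraries of the same age. The 10 endothelial markers summed to 145, 31.0 and 322 FPKM at P4, against 31.0, 22.5 and 125 at P0. The 8 atrial markers summed to 88.2, 303 and 1205 FPKM at P4, against 487, 487 and 587 at P0, so the lowest and the highest atrial signal were both in P4 libraries. The 11 erythroid markers summed to 376, 1101 and 1673 FPKM at P4, against 21040, 20740 and 989 at P0.

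The sum of smooth muscle and pericyte markers was lower in each P4 library, at 212, 369 and 272 FPKM, against 389, 390 and 406 FPKM at P0. Acta2, given below, carried much of this sum. Of the 10 members 7 had estimates below 0, 2 of them without overlap, and 3 had estimates above 0, Rgs5 (1.19) among them. Platelet markers ranged from 1.19 to 2.62 FPKM at P4, against 2.91 to 5.77 at P0, and neutrophil markers from 0.828 to 2.01 at P4, against 0.325 to 0.713 at P0. The neutrophil genes Mpo and Elane were at 0 in all 6 libraries. The sums of fibroblast, epicardial, macrophage, Schwann, lung and adipocyte markers overlapped between the ages, with macrophage markers at no more than 7.58 FPKM. The lung genes Sftpa1 and Sftpd, the adipocyte genes Adipoq, Cfd and Retn and the skeletal muscle regulators Myod1, Myf5, Myf6 and Pax7 were at 0 in all 6 libraries; the skeletal muscle sum of 669 to 1081 FPKM at P4 and 862 to 1019 at P0 was almost wholly Ckm, which heart muscle also expresses. In such bulk samples, fewer cells of a type and less RNA per cell cannot be told apart.

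**Figure D2:**
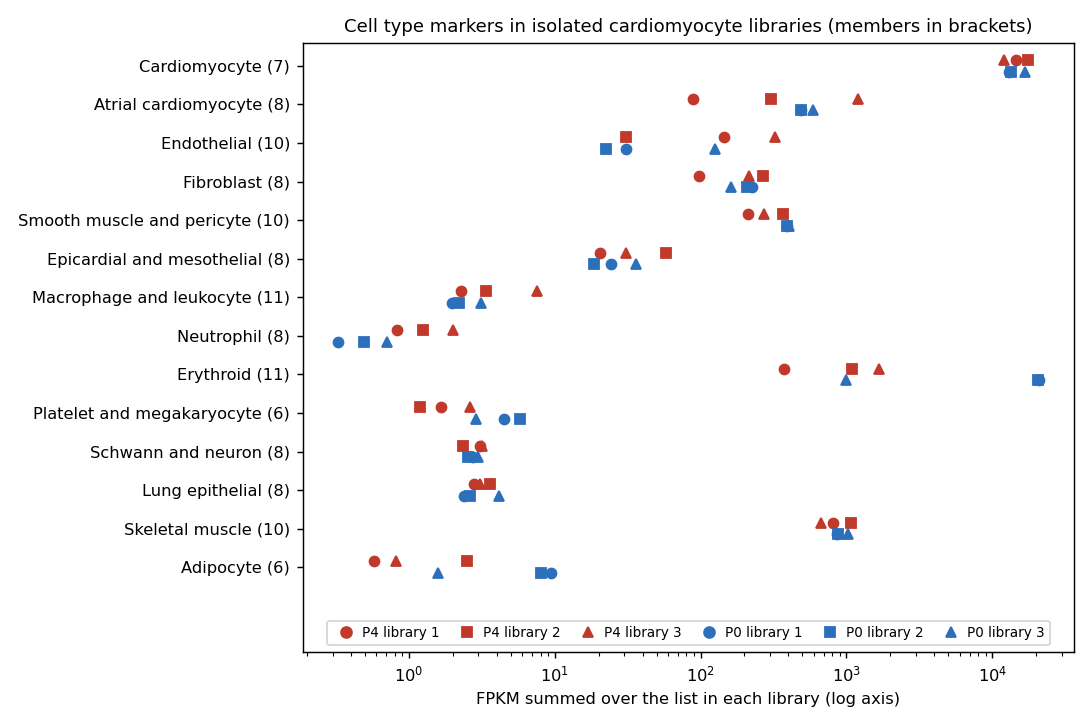
FPKM summed over markers of 14 cell types in each isolated library (log axis), P4 above P0 within a row and one symbol per library number. Cardiomyocyte markers lie at 11970 FPKM or above in all 6 libraries, erythroid markers separate P0 libraries 1 and 2 from the other 4, and the endothelial and atrial sums spread widely among P4 libraries.

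Of 12239 genes, 4 passed an adjusted p of 0.05 between P4 and P0 (0.0327%), 1 higher (0.00817%) and 3 lower (0.0245%). At an unadjusted p under 0.05 there were 347 genes (2.84%), 220 higher and 127 lower. That share is below the 0.05 that would be expected if no gene differed. The gene that rose was Mapt, which encodes the microtubule-associated protein tau. The genes that fell were Hif3a, an oxygen-regulated member of the hypoxia-inducible factor family that can hold back its relatives, and the olfactory receptor genes Olfr609 and Olfr608. With P0 libraries 1 and 2 averaged as 1 sample, limma called 0 genes (97 higher and 79 lower at an unadjusted p under 0.05).

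Mapt (ENSMUSG00000018411, chromosome 11, 104092704 to 104193404, mm9) had 3.90, 2.94 and 2.83 FPKM in P4 cardiomyocytes, against 0.609, 0.504 and 0.639 FPKM in P0 cardiomyocytes. Every P4 library was above every P0 library, and the lowest P4 value was several times the highest P0 value. The log2 change was 1.41 (95% interval 1.04 to 1.78, adjusted p = 0.021). In whole ventricle Mapt had 4.79 and 6.39 FPKM at P4, against 0.948 and 0.726 FPKM at P0, a rise of 1.83 (adjusted p = 0.00079). In isolated cells from hearts 7 days after sham surgery it had 2.63, 2.996 and 2.82 FPKM. The call held without P0 library 3 (adjusted p = 0.034) or P4 library 3 (adjusted p = 0.039) and was lost without any other single library (adjusted p = 0.061 to 0.10).

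Hif3a (ENSMUSG00000004328, chromosome 7, 17616856 to 17647776, mm9) had 1.22, 0.843 and 0.539 FPKM in P4 cardiomyocytes, against 3.06, 3.19 and 2.72 FPKM in P0 cardiomyocytes, with no overlap. It fell by 1.11 on the log2 scale (95% interval -1.47 to -0.75, adjusted p = 0.043). In ventricle it had 0.840 and 1.02 FPKM at P4, against 11.0 and 11.3 FPKM at P0, and fell by 2.65 (adjusted p = 5.2e-06). The P4 levels were thus close in both preparations, while the P0 level was higher in ventricle than in isolated cells. After sham surgery isolated cells had 0.0982, 0.125 and 0.419 FPKM. The call in isolated cells was lost when any single one of the 6 libraries was left out (adjusted p = 0.053 to 0.29).

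The pair of olfactory receptor genes lie near each other on chromosome 7 (Olfr608 at 110618555 to 110619505 and Olfr609 at 110640429 to 110641393, mm9), 342 and 320 kb from the nearest beta-globin gene. Olfr609 had 0.146, 0.150 and 0.467 FPKM at P4, against 1.86, 2.07 and 1.35 FPKM at P0, a fall of 1.14 on the log2 scale (adjusted p = 0.026). Olfr608 had 0.538, 0.562 and 0.778 FPKM at P4, against 2.05, 1.97 and 2.22 FPKM at P0, and fell by 0.92 (adjusted p = 0.030). In ventricle the ages overlapped for both. Olfr609 had 1.75 and 3.08 FPKM at P4 there, against 3.01 and 9.17 FPKM at P0 (limma adjusted p = 0.25). Olfr608 had 2.07 and 1.61 FPKM at P4 in ventricle, against 1.61 and 6.53 FPKM at P0 (limma adjusted p = 0.48). Both are low, and the family has many near-identical members whose reads the authors' processing could split, so their levels are uncertain. P0 library 3, with its low globin, was the lowest P0 library for Olfr609 and the highest for Olfr608. A link of either gene with the globin signal was not tested. The call of Olfr608 was lost without any single one of the 6 libraries, and that of Olfr609 held only without P0 library 3 (adjusted p = 0.017) or P4 library 3 (adjusted p = 0.039).

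Next in order of p, short of the threshold, stood Ankrd1, and its relative Ankrd23 followed closely. Ankrd1, a titin-binding protein of the sarcomere that also acts in the nucleus and is induced by mechanical load, had 396, 417 and 438 FPKM in P4 cardiomyocytes, against 140, 140 and 183 FPKM in P0 cardiomyocytes. The groups did not overlap, and the log2 change of 1.44 (95% interval 0.95 to 1.93) did not pass the threshold (adjusted p = 0.065). It passed under 6 of 21 other settings, among them quantile normalization (adjusted p = 0.0087) and a fit without the day 7 resection libraries (adjusted p = 0.011), and its adjusted p over all 21 ranged from 0.00019 to 0.53. After sham surgery isolated cells had 162, 149 and 188 FPKM, near the P0 level. In ventricle Ankrd1 had 345 and 522 FPKM at P4, against 247 and 322 FPKM at P0 (log2 change 0.59, adjusted p = 0.51).

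Ankrd23, a relative of Ankrd1 that binds titin at the same region of the sarcomere, had 27.0, 37.9 and 34.4 FPKM in P4 cardiomyocytes, against 11.3, 11.9 and 13.9 FPKM in P0 cardiomyocytes. Its log2 change was 1.34 (95% interval 0.84 to 1.84, adjusted p = 0.11). In ventricle it had 46.1 and 65.5 FPKM at P4, against 18.9 and 16.3 FPKM at P0, and rose by 1.59 (adjusted p = 0.032). Here the sham-operated cells, at 36.4, 33.1 and 38.3 FPKM, stood near the P4 level, unlike those for Ankrd1.

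The promoters of both ankyrin repeat genes were read from RefSeq (build GRCm38.p6, 250 bases before to 50 after the start), because these were the members of the stretch-responsive list with the largest change. They are shown 5′ to 3′ on the gene's strand, with capitals for CATTCC or its reverse complement GGAATG, the M-CAT element that TEAD factors bind. The Ankrd1 window is chr19:36119795-36120094, minus strand, and the windows of both Ankrd23 entries are chr1:36536507-36536806 and chr1:36535690-36535989, minus strand.
Ankrd1: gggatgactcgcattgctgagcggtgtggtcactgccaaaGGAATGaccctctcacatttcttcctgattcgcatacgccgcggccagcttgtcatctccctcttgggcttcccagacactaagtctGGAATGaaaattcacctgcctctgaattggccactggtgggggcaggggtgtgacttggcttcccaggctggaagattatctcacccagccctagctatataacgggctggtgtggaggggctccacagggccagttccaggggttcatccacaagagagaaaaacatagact
Ankrd23 entry 1: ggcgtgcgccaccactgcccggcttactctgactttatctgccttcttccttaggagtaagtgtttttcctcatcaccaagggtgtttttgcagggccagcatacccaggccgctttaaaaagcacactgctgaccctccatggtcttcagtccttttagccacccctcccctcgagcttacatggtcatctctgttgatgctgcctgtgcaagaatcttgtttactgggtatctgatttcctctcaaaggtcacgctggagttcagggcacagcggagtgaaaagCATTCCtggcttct
Ankrd23 entry 2: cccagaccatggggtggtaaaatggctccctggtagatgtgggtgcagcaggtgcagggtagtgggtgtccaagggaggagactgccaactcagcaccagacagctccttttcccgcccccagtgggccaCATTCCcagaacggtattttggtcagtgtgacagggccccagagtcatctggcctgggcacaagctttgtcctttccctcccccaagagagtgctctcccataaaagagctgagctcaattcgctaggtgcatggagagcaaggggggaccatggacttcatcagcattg
The Ankrd1 window held 2 matches, both before the start. The Ankrd23 windows held 1 match each, after the start in entry 1 and before it in entry 2. Of 32851 promoters of this length, 14.7% held at least 1 match on either strand. A MEF2 site (found in 3.69% of promoters) and the ACGTG form of the hypoxia response element core (found in 19.6%) were not in any of these windows, nor in the RefSeq promoter of Hif3a. The GCGTG form of that core was not part of the search, and it occurs in the Hif3a promoter and in Ankrd23 entry 1. The table gave no promoter entry for Mapt.

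All 15 tested members of the YAP and stretch-responsive list (17 listed) had an estimate above 0, beside 70.0% of all 12239 genes, with a median of 0.26 beside 0.09 for all genes. Of these 15, 4 had all P4 libraries above all P0 libraries and 0 the reverse, beside 6.45% and 2.44% of all genes tested; none passed the adjusted threshold. The other 2 of the 4 were Ctgf, a matricellular growth factor and YAP target, at 63.5, 65.6 and 57.8 FPKM at P4 against 43.2, 41.8 and 47.4 FPKM at P0, and Csrp3, the muscle LIM protein of the Z-disc, at 575, 596 and 403 FPKM at P4 against 346, 359 and 366 FPKM at P0. The median of the list was 0.19 with median-of-ratios scaling, 0.15 with quantile normalization and 0.12 with P0 libraries 1 and 2 averaged. It was 0.12 without P0 library 2, 0.13 without P4 library 3, 0.16 without P0 library 1, 0.41 without P0 library 3 and 0.42 without P4 library 2.

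**Figure D3:**
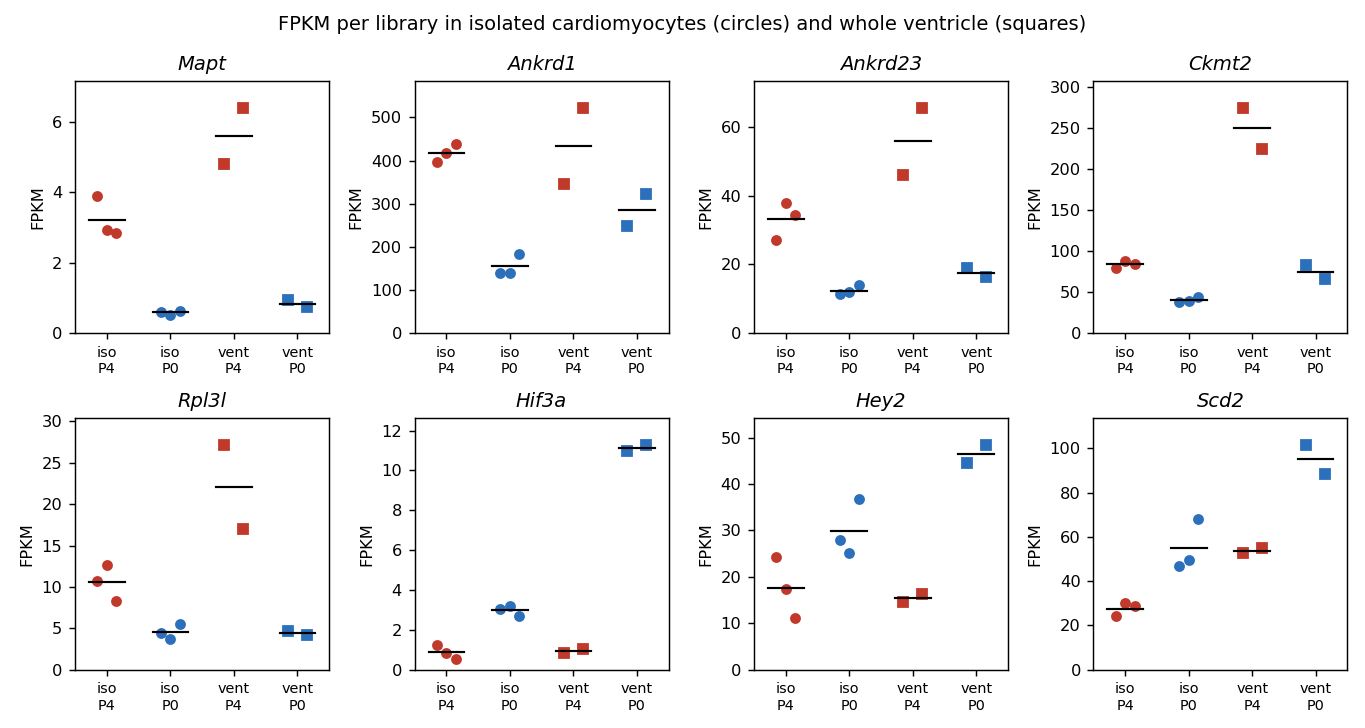
FPKM of 8 genes in each library of isolated cardiomyocytes (circles) and whole ventricle (squares), P4 in red and P0 in blue, with a line at each group mean. In isolated cells the 3 P4 points lie above the 3 P0 points for Mapt, Ankrd1, Ankrd23, Ckmt2 and Rpl3l and below them for Hif3a, Hey2 and Scd2.

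Across all genes, 1088 had P4 and P0 libraries that did not overlap (8.89%), 789 higher (6.45%) and 299 lower (2.44%) at P4. The direction of this split rested on the scaling: the share of higher genes was 72.5% as deposited, 49.1% with median-of-ratios scaling, 37.6% with quantile normalization and 58.1% when rescaled without globin and mitochondrial genes. The median log2 change of all genes was 0.09 as deposited, 0.02 with median-of-ratios scaling, -0.01 with quantile normalization and 0.18 without P0 library 3. Without P0 library 3 the number of genes that did not overlap was 4915, and it was 2322 without P4 library 1, 2234 without P4 library 2 and 2698 without P4 library 3. With a library left out, a random order separates more genes, so those counts are not comparable with 1088. With all 6 libraries the number was 1463 with median-of-ratios scaling and 1595 with quantile normalization. A random order of 3 against 3 libraries would give a larger share than the 8.89% found as deposited. It would give a smaller share than those found with median-of-ratios scaling and quantile normalization. None of these shares was tested.

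Among genes without overlap, with an unadjusted p under 0.05 and a mean of at least 5 FPKM, 89 were higher and 22 lower at P4. None of them passed the adjusted threshold. Twf2, an actin-capping protein, had 19.5, 15.7 and 15.9 FPKM at P4, against 8.35, 7.70 and 8.01 FPKM at P0 (log2 change 0.99, adjusted p = 0.11). Ckmt2, the mitochondrial creatine kinase of muscle, had 79.2, 88.1 and 84.0 FPKM at P4, against 37.4, 39.6 and 43.6 FPKM at P0 (1.04, adjusted p = 1.0). Rpl3l, the striated muscle form of ribosomal protein L3, had 10.7, 12.7 and 8.31 FPKM at P4, against 4.39, 3.66 and 5.56 FPKM at P0 (1.06, adjusted p = 0.63).

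Me3, the mitochondrial malic enzyme, had 14.8, 13.1 and 12.3 FPKM at P4, against 4.73, 6.32 and 7.47 FPKM at P0 (log2 change 1.02). Cxcr7, a scavenging chemokine receptor, had 5.004, 5.12 and 7.13 FPKM at P4, against 1.85, 1.73 and 3.12 FPKM at P0 (1.07). Cdkn3, a phosphatase that acts on cyclin-dependent kinases, had 5.4, 8.62 and 7.48 FPKM at P4, against 2.80, 3.10 and 3.03 FPKM at P0 (1.02, adjusted p = 0.55). Each of these 3 genes had its lowest P4 library above its highest P0 library. Nppb, the B-type natriuretic peptide that is released under load, had 55.3, 110 and 90.4 FPKM at P4, against 39.3, 37.0 and 46.5 FPKM at P0 (0.99, 95% interval 0.17 to 1.82), the P4 libraries differing about as much among themselves as from P0. Rb1cc1, needed for autophagy, had 16.9, 11.8 and 12.6 FPKM at P4, against 9.997, 10.25 and 0 FPKM at P0, and the value listed at 0 in P0 library 3 carried its estimate.

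Of the lower genes Scd2, a stearoyl-CoA desaturase of lipid synthesis, had 24.2, 30 and 28.7 FPKM at P4, against 46.8, 49.4 and 68.3 FPKM at P0 (log2 change -0.95, adjusted p = 0.62). It passed with median-of-ratios scaling (adjusted p = 0.041) and quantile normalization (adjusted p = 0.025). Prss35, a serine protease family member, had 1.10, 1.65 and 0.918 FPKM at P4, against 7.87, 6.98 and 1.98 FPKM at P0 (-1.43), and Thbs1, the matrix protein thrombospondin 1, had 2.94, 8.41 and 9.82 FPKM at P4, against 19.7, 18.2 and 9.93 FPKM at P0 (-1.15). In both, P0 libraries 1 and 2, those with high globin, made most of the difference; its link with that signal was not tested. Stbd1, a glycogen-binding protein, had 4.82, 5.47 and 3.07 FPKM at P4, against 9.69, 10.3 and 10.7 FPKM at P0 (-1.07), with the P0 libraries close together. Cacna1h, a T-type calcium channel of the fetal heart, had 4.94, 3.13 and 3.85 FPKM at P4, against 6.18, 6.57 and 10.9 FPKM at P0 (-0.81), and the protease Adamts6 had 4.55, 1.98 and 2.84 FPKM at P4, against 5.89, 6.07 and 6.87 FPKM at P0 (-0.86).

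Estimates of contractile genes ran from -0.21 to 1.05 between P4 and P0. Of 27 tested sarcomere and thin filament genes (32 listed), 4 lay higher at P4 without overlap and 0 lower, beside 6.45% and 2.44% of all genes, and none passed the threshold; the median was 0.22, 0.03 without P4 library 2 and 0.33 without P4 library 3. The 4 were Csrp3, the titin cap protein Tcap (174, 127 and 107 FPKM at P4 against 89.0, 91.9 and 104 at P0), the membrane repair protein Trim72 (8.28, 10.01 and 12.8 FPKM at P4 against 4.27, 4.50 and 5.29 at P0) and Xirp2, an actin-binding protein of the intercalated disc (2.99, 5.84 and 4.96 FPKM at P4 against 1.77, 1.62 and 1.52 at P0). The myosin and troponin pairs that mark the fetal to adult exchange overlapped. Myh6, the adult alpha-myosin of mouse heart, had 1678, 1871 and 1442 FPKM at P4, against 1517, 1565 and 2220 FPKM at P0 (log2 change -0.07, 95% interval -0.74 to 0.60). Myh7, the fetal beta-myosin, had 836, 569 and 413 FPKM at P4, against 555, 609 and 682 FPKM at P0 (-0.08, 95% interval -0.80 to 0.65). The slow troponin Tnni1 had 1072, 1020 and 580 FPKM at P4, against 882, 869 and 1036 FPKM at P0 (-0.11), and the cardiac troponin Tnni3 had 1731, 2060 and 1316 FPKM at P4, against 1231, 1231 and 1472 FPKM at P0 (0.36). For Myh6, Myh7, Tnni1 and Tnni3 alike P4 library 3 was the lowest of its group, as it was for the sum of cardiomyocyte markers.

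Of 18 tested calcium handling genes, 1 was higher and 2 were lower without overlap, 1 of the lower being Cacna1h. These counts, and those of the next 2 lists, stand beside 6.45% of all genes higher and 2.44% lower. Ryr2, the calcium release channel of the sarcoplasmic reticulum, had 48.8, 48.3 and 45.1 FPKM at P4, against 60.7, 65.1 and 88.4 FPKM at P0 (log2 change -0.56), and the calcium-binding S100a1 had 147, 169 and 113 FPKM at P4, against 105, 106 and 108 FPKM at P0 (0.41). Among 18 ion channel and gap junction genes, Kcne1, a potassium channel subunit, had 99.1, 95.04 and 65.9 FPKM at P4, against 49.5, 51.1 and 56.0 FPKM at P0 (0.70), Hcn2 had 2.98, 2.64 and 2.61 FPKM at P4, against 1.11, 1.199 and 1.80 FPKM at P0 (0.67), and its pacemaker relative Hcn4 was lower without overlap (-0.27). None of them passed. Of 18 tested microtubule genes Mapt was the 1 called, beside 0.0327% of all genes. Tuba8, a tubulin of muscle, was also higher without overlap, with 2.65, 12.1 and 6.06 FPKM at P4 against 1.62, 2.04 and 2.58 at P0 (1.19).

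Of 20 tested cardiac transcription factor genes, 5 were lower without overlap and 0 higher, beside 2.44% and 6.45% of all genes. Of the 20 estimates 14 were below 0 and 6 above, and none passed. Their median was -0.12, with -0.17 to -0.22 under the other scalings and 0.03 without P0 library 3. The median of all genes moved too, from 0.09 to 0.18 without P0 library 3. Less that median, the list stood at -0.21 as deposited and under the other scalings, and at -0.14 without P0 library 3. Hey2, a Notch target that marks compact ventricular muscle, had 24.4, 17.4 and 11.2 FPKM at P4, against 28.01, 25.1 and 36.7 FPKM at P0 (log2 change -0.78). Hand1 had 0.410, 0.397 and 0.389 FPKM at P4, against 0.844, 1.03 and 1.24 FPKM at P0 (-0.54), and its relative Hand2 had 28.2, 21.6 and 16.8 FPKM at P4, against 28.4, 29.1 and 30.5 FPKM at P0 (-0.42). The T-box factors Tbx18 (-0.38) and Tbx20 (-0.24) completed the 5.

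Of 14 tested imprinted and fetal growth genes (21 listed), 4 were lower without overlap and 0 higher, beside 2.44% and 6.45% of all genes, and 13 estimates were below 0. Their median was -0.24, with -0.29 to -0.34 under the other scalings and -0.05 without P0 library 3. Less the median of all genes, it stood at -0.33 as deposited and under the other scalings, and at -0.23 without P0 library 3. Plagl1, an imprinted zinc finger regulator of a growth network, had 55.0, 27.2 and 37.2 FPKM at P4, against 59.1, 55.1 and 76.1 FPKM at P0 (log2 change -0.70). The other 3 were the whole family of Igf2 mRNA-binding proteins. Igf2bp3 had 2.98, 2.61 and 2.75 FPKM at P4, against 4.33, 4.06 and 4.83 FPKM at P0 (-0.52). Igf2bp2 had 4.04, 4.90 and 4.78 FPKM at P4, against 6.18, 5.70 and 6.82 FPKM at P0 (-0.38). Igf2bp1 had 0.638, 0.862 and 0.768 FPKM at P4, against 1.31, 1.11 and 1.41 FPKM at P0 (-0.37). Igf2 itself overlapped, with 147, 109 and 210 FPKM at P4 and 152, 152 and 241 FPKM at P0 (-0.24). None of these passed in isolated cells.

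None of the listed cell cycle genes passed the threshold. All 28 tested mitosis genes had an estimate above 0, beside 70.0% of all genes, with a median of 0.38, and 5 were higher without overlap, beside 6.45% of all genes: the centromere histone Cenpa (30.6, 34.3 and 32.6 FPKM at P4 against 18.9, 19.9 and 21.4 at P0, log2 change 0.67), the kinesin Kif20a (7.74, 10.4 and 9.73 against 4.802, 5.37 and 6.02, 0.68), the mitotic cyclins Ccnb2 (0.61) and Ccnb1 (0.40), and the anaphase activator Cdc20 (0.61). The mitosis median was 0.31 with median-of-ratios scaling and 0.28 with quantile normalization, and between 0.23 (without P4 library 3) and 0.62 (without P4 library 1) when single libraries were left out. All 26 tested replication genes were above 0 as well, with a median of 0.23 that became 0.02 without P4 library 3 and 0.49 without P4 library 1, and 0 of them were free of overlap. Mki67, a proliferation marker, had 5.45, 7.27 and 13.0 FPKM at P4, against 4.83, 5.33 and 8.49 FPKM at P0 (0.36). P4 library 3, with the most Mki67, also had the largest endothelial sum, 322 FPKM; their relation was not tested. The cell cycle inhibitors Cdkn1a (0.45) and Cdkn2c (0.51) were the 2 of 14 G1 genes that did not overlap, both higher at P4.

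Counts of energy metabolism genes free of overlap stand beside 6.45% of all genes higher and 2.44% lower. Of 27 tested genes of fatty acid uptake and oxidation 0 were free of overlap, with a median of -0.01; Cd36, a fatty acid transporter, had 355, 212 and 245 FPKM at P4, against 184, 194 and 231 FPKM at P0 (log2 change 0.39). Of 22 PPAR-responsive genes 1 was free of overlap, Ppara itself, lower at P4 (4.43, 4.04 and 3.88 FPKM at P4 against 4.52, 5.31 and 6.55 at P0, -0.33). Of 21 glycolysis genes 2 were lower: Aldoc, a fructose-bisphosphate aldolase, with 2.94, 2.63 and 2.24 FPKM at P4 against 3.97, 4.45 and 6.05 at P0 (-0.68), and Pgam1, a phosphoglycerate mutase, with 7.80, 14.9 and 13.6 FPKM at P4 against 17.9, 16.1 and 19.6 at P0 (-0.57). Among 34 nuclear-encoded respiratory chain genes 3 were higher, Cox5b (0.52), the heart and muscle isoform Cox8b (0.48) and Atp5g1 (0.28), and 29 estimates were above 0, with a median of 0.15 that shrank to 0.01 under quantile normalization or without P4 library 2 and was 0.33 without P4 library 3. Of the 7 creatine kinase and energy transfer genes Ckmt2 was the 1 free of overlap. The citric acid cycle (17 tested) and ketone and branched-chain (11 tested) lists had 0 such genes, with medians of 0.10 and -0.07. The 14 tested sterol synthesis genes also had 0, with a median of -0.13 that became 0.04 without P0 library 3 and -0.02 without P4 library 1. Less the median of all genes, the sterol median stood at -0.21 as deposited, -0.14 without P0 library 3 and -0.10 without P4 library 1.

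In the remaining lists, too, counts without overlap stand beside 6.45% of all genes higher and 2.44% lower. Of 25 cytosolic ribosome genes 4 were higher without overlap, Rpl3l, Rpl18 (log2 change 0.22) and Rpl19 (0.31) among them, with a median of 0.21 that lay between 0.10 and 0.15 under the other scalings. Of 17 heat shock chaperones Hspb8, a small heat shock protein of muscle, had 38.1, 50.03 and 35.2 FPKM at P4, against 22.1, 22.1 and 26.5 FPKM at P0 (log2 change 0.77), Hspa5 was also higher (0.64) and Hspd1 lower (-0.23). Of 15 tested HIF-responsive genes, Hif3a was the 1 called, beside 0.0327% of all genes, and Egln1, an oxygen sensor, was higher without overlap (0.24). Of 11 tested natriuretic peptide and fetal load genes, Nppb was higher and the smooth muscle genes Acta2 and Cnn1 lower; Acta2 had 96.5, 248 and 177 FPKM at P4, against 278, 278 and 287 FPKM at P0 (-0.79). Both also belong to the smooth muscle markers. Their sum, lower in each P4 library, contains Acta2 itself and so is not a separate reading. The part of smooth muscle cells in the result was not tested. Of 11 tested mitochondrially encoded genes mt-Nd6 was higher (0.43), of 24 matrix genes Thbs1 was lower, and of 10 thyroid hormone and glucocorticoid-responsive genes Zbtb16 was lower (-0.49). The lists of 21 immediate early, 11 integrated stress response, 6 interferon and 9 IL-4 and IL-13 pathway genes had 0 genes free of overlap. The 10 endothelial markers were all above 0, with a median of 1.03 and 0 free of overlap. The median was 0.46 without P4 library 3, 0.64 without P0 library 2, 1.61 without P0 library 3 and 1.70 without P4 library 2. Cdh5, the cadherin of endothelial junctions, had 38.7, 4.72 and 81.0 FPKM at P4, against 3.49, 2.75 and 25.5 FPKM at P0, so that P4 library 2 lay among the P0 libraries. Of the 7 tested atrial genes Bmp10 was lower without overlap (-0.94), and the median of -0.63 became 0.36 without P4 library 1 and -1.56 without P4 library 3. The tested members of the other cell type lists had medians of -0.07 (7 cardiomyocyte genes), 0.02 (8 fibroblast), -0.18 (10 smooth muscle), 0.35 (8 epicardial), 0.20 (2 macrophage), -2.66 (7 erythroid) and -0.49 (2 platelet), the last with Itga2b lower without overlap. The cardiomyocyte median was 0.27 under quantile normalization, the fibroblast median was -0.05 with median-of-ratios scaling and 0.39 without P4 library 1, and the epicardial median was -0.07 without P4 library 2. Single genes were tested of the Schwann (-0.02), lung (0.10) and adipocyte (-1.55) lists, 2 of the skeletal muscle list (median -0.07) and 0 of the neutrophil list, and the 5 sex-specific genes had a median of -0.02. The medians of the ion channel, glycolysis, citric acid cycle, HIF, stress response and heat shock lists, all between 0.02 and 0.10, changed sign under at least 1 other scaling, and those of the fatty acid and ketone lists without P4 library 3. The median of all genes moved with the scalings too, from 0.09 as deposited to -0.01 with quantile normalization and 0.04 when rescaled.

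**Figure D4:**
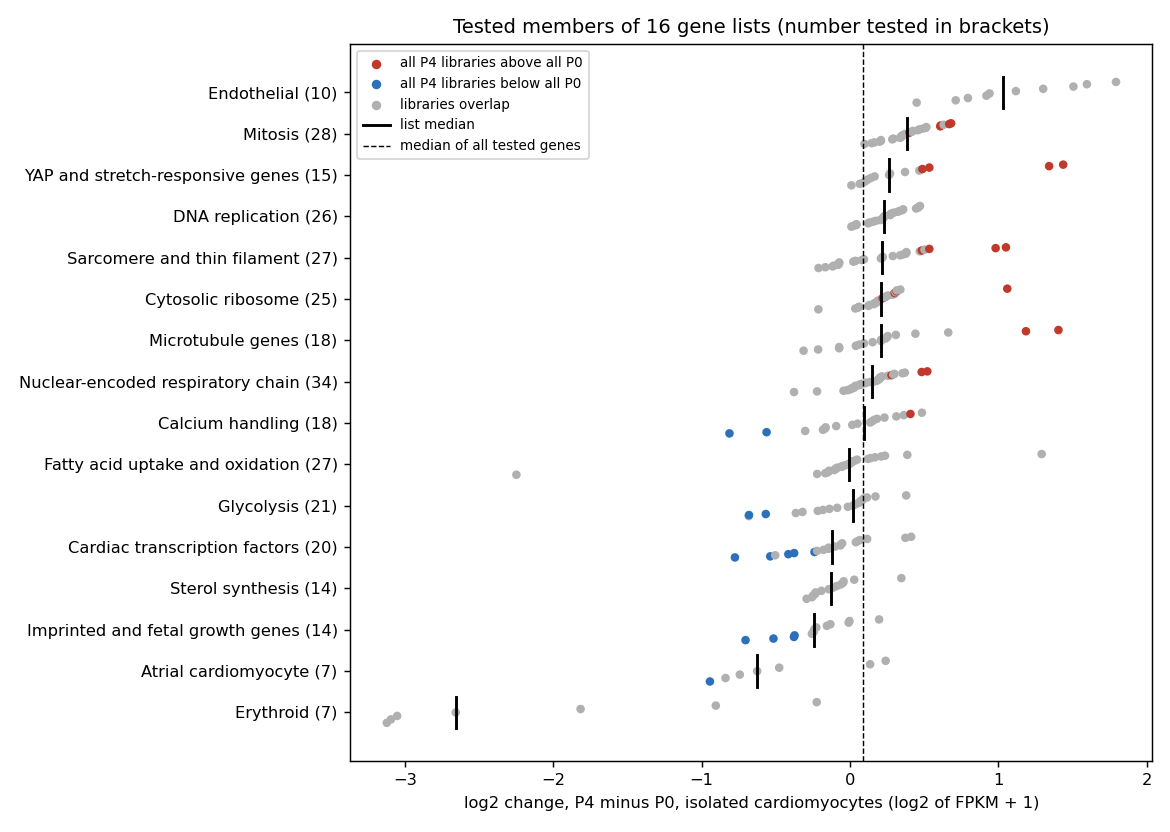
Log2 change, P4 minus P0, in isolated cardiomyocytes for each tested member of 16 gene lists; red and blue points are genes whose P4 libraries lie all above or all below the P0 libraries, grey points overlap, bars are list medians and the dashed line is the median of all tested genes, 0.09. All 28 mitosis and 15 stretch-responsive genes lie above 0 and all 7 erythroid genes below it.

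Whole ventricle gave a separate reading of the same ages, from other libraries. There 218 of 13187 genes were called between P4 and P0 (1.65%), 101 higher (0.766%) and 117 lower (0.887%). Of the 101 that rose in ventricle 84 were tested in isolated cells, and 32 of them (38.1%) had all isolated P4 libraries above all P0 libraries, beside 6.45% of all genes. Of the 117 that fell 106 were tested, and 40 (37.7%) were lower without overlap in isolated cells, beside 2.44% of all genes. The change was smaller in isolated cells: the 84 genes had a median of 0.56 in isolated cells and 0.93 in ventricle, and the 106 genes a median of -0.31 in isolated cells and -0.89 in ventricle. Genes chosen for passing a threshold in ventricle tend to have large ventricle estimates, so the medians of both preparations are not compared by a test.

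Under other scalings the counts were 32 to 34 of 84 genes and 46 to 49 of 106, while the shares of all genes moved as well. The lower genes were 46.2% of the 106 beside 6.08% of all genes with median-of-ratios scaling, 46.2% beside 8.14% with quantile normalization, and 43.4% beside 4.0% when rescaled. The higher genes were 40.5% of the 84 beside 5.87%, 39.3% beside 4.89%, and 38.1% beside 5.55% in the same order of scalings. Without P0 library 3 the first count was 63 of 84, beside 36.4% of all genes, and without P4 library 1 the counts were 50 of 84 and 70 of 106, beside 11.7% and 7.27% of all genes. With P0 libraries 1 and 2 averaged they were 32 and 45.

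**Figure D5:**
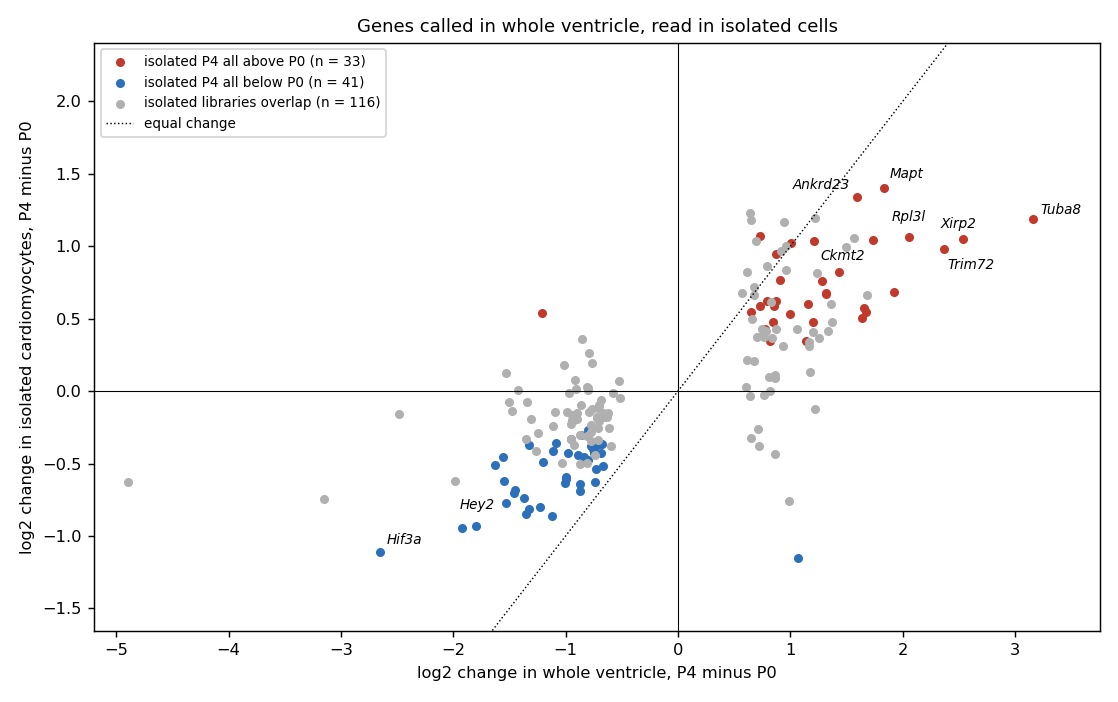
Log2 change, P4 minus P0, in isolated cardiomyocytes (vertical) against whole ventricle (horizontal) for the 190 genes called in ventricle and tested in both; red and blue points do not overlap in isolated cells. Of the 84 genes higher in ventricle 74 lie above 0 in isolated cells, and of the 106 lower in ventricle 93 lie below 0. Among all 12239 genes tested in isolated cells, 70.0% lie above 0.

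Several muscle genes among these had a smaller estimate in isolated cells. Tuba8 rose by 3.16 in ventricle, to 24.1 and 13.4 FPKM at P4 against 1.36 and 0.912 at P0, and its isolated estimate was 1.19. Xirp2 rose by 2.53 in ventricle and Trim72 by 2.37, against isolated estimates of 1.05 and 0.98. Rpl3l rose by 2.06 and Ckmt2 by 1.73 in ventricle, with 27.2 and 17.1 FPKM of Rpl3l at P4 against 4.64 and 4.21 at P0. For none of these 5 genes did the difference between preparations pass the threshold (adjusted p = 0.98 to 1.0). Itga7, the laminin receptor of muscle, had 13.4, 13.4 and 12.9 FPKM in isolated P4 cells against 7.02, 6.98 and 8.19 FPKM in isolated P0 cells (0.76), and it rose by 1.28 in ventricle. The retinoid receptor Rxrg rose by 1.66 in ventricle, with an isolated estimate of 0.57, and Hcn2 by 1.32, with an isolated estimate of 0.67.

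Among the genes that fell in ventricle, Hey2 fell by 1.53 and Plagl1 by 1.46, and all 3 Igf2 mRNA-binding protein genes fell, by 1.33 (Igf2bp1), 0.74 (Igf2bp2) and 0.66 (Igf2bp3). Of the 17 imprinted and fetal growth genes tested in ventricle 8 fell and 0 rose, and of the 20 cardiac transcription factors 4 fell and 0 rose, beside 0.887% and 0.766% of all ventricle genes. Not every list was alike in both preparations. Ventricle medians were 0.004 (stretch-responsive), -0.28 (cytosolic ribosome) and -0.29 (immediate early), beside 0.26, 0.21 and 0.18 in isolated cells. The mitosis median was 0.30 in ventricle and 0.38 in isolated cells. The median of all genes was -0.04 in ventricle and 0.09 in isolated cells. The lipid synthesis regulator Srebf1 fell by 0.83 and its target Fasn, the fatty acid synthase, by 0.80 in ventricle; in isolated cells Fasn had 13.0, 12.1 and 10.4 FPKM at P4, against 13.7, 16.5 and 21.0 FPKM at P0 (-0.48), without overlap. The signalling ligand Bmp7 fell by 1.00 in ventricle and was lower without overlap in isolated cells (-0.63), and so was the endothelin receptor Ednra (-0.95 in ventricle and -0.33 in isolated cells).

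Some genes that fell in ventricle overlapped between the ages in isolated cells. Myh7 fell by 1.51 in ventricle, with 907 and 877 FPKM at P4 against 2557 and 2516 FPKM at P0, beside an estimate of -0.08 in isolated cells. Dlk1, an imprinted Notch-like protein, fell by 2.48 in ventricle and had 2.37, 4.91 and 3.79 FPKM in isolated P4 cells against 4.03, 2.36 and 6.80 FPKM in isolated P0 cells. The atrial light chain Myl7 fell by 4.90 in ventricle, where the P0 libraries had 459 and 70.6 FPKM, and ranged from 8.27 to 376 FPKM among isolated P4 libraries. Igf2 fell by 1.11 in ventricle. The difference between preparations did not pass the threshold for Myh7 (1.43, 95% interval 0.52 to 2.34, adjusted p = 1.0) or Igf2 (0.87, 95% interval -0.48 to 2.22, adjusted p = 1.0).

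Of the 89 genes that led the increases in isolated cells, 76 had a ventricle estimate above 0, 11 were called higher and 0 lower there. Among all ventricle genes 0.766% were called higher and 0.887% lower, and the median estimate was -0.04. Of the 21 leading lower genes tested in ventricle, 19 had an estimate below 0, 8 were called lower and 0 higher. These counts of signs include genes with estimates next to 0, such as Aldh4a1, a proline catabolism enzyme. It had 2.91, 4.68 and 3.82 FPKM in isolated P4 cells, against 6.16, 5.95 and 8.01 FPKM in isolated P0 cells (log2 change -0.69), and its ventricle estimate was 0.00, with 9.57 and 10.02 FPKM at P4 against 10.6 and 9.04 FPKM at P0.

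A test of the difference itself, the isolated change minus the ventricle change, covered 13393 genes and called 3 of them (0.0224%), 2 positive (0.0149%) and 1 negative (0.00747%). Hif3a differed by 1.55 (95% interval 1.07 to 2.02, adjusted p = 0.013), its fall being smaller in isolated cells. The predicted gene Gm17428 (chromosome 14, 55595770 to 55595862, mm9) had 0, 0.784 and 0.564 FPKM in isolated P4 cells, against 2.19, 2.15 and 2.06 FPKM in isolated P0 cells. In ventricle it had 7.67 and 8.26 FPKM at P4, against 4.40 and 2.38 FPKM at P0, a difference of -2.22 (adjusted p = 0.025). It is a short gene model within the coordinates of the abundant Myh7 (55589525 to 55613471). Its levels are thus uncertain, and the part of Myh7 reads in them was not tested. The short gene model AC148014.1 was listed at 0 in all 6 isolated libraries and both P4 ventricle libraries, against 1.14 and 2.20 FPKM in P0 ventricle (1.39, adjusted p = 0.025). With the ventricle P4 library 1 left out, the one with little Eif2s3y, 0 genes differed by limma (122 positive and 47 negative at an unadjusted p under 0.05), and the same count of 0 was found without ventricle P4 library 2 (284 positive and 70 negative).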

How the data were processed

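RNA sequencing libraries were made from total RNA extracted with Trizol, by an earlier protocol or with TruSeq kits, per the labels' protocols, which do not say which library had which. The tools named, without their roles, per the submitters' processing notes, are TopHat 1.3.2, Bowtie 0.12.7, Cuffdiff and Cufflinks 1.2.1, with the mouse build mm9; the annotation is not given in the sources used here. The authors deposited FPKM per gene model and library, and read depth is unknown because the values are not counts. No column of the table was left out for lack of a sample label.

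Values were transformed as log2(FPKM + 1), so a fold change understates the change of low genes. Group means were fitted with limma 3.58.1 in R 4.3.3, using eBayes with a variance trend, over the 12 isolated cardiomyocyte libraries, the 16 ventricle libraries, or these 28 libraries for the difference between preparations. Genes needed at least 1 FPKM in 2 or more of the compared libraries. Tests were two-sided, p-values were adjusted by Benjamini-Hochberg over all tested genes, and the threshold was 0.05 with no minimum fold. Because the labels name no separate animals, p-values measure only the spread between these samples. A gene is said not to overlap where all P4 libraries lie above, or all below, all P0 libraries, which is a description without a test. The sequencer and kit of a library are not labelled, so values within such batches could not be given.

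Of 44 gene lists, 29 of processes, 14 of cell types and 1 of sex-specific genes, 658 of 698 distinct genes were in the table, 10 of them by Ensembl ID under an older symbol, and 559 were tested. The comparison, its lists and its alternatives were chosen with earlier results of these data known. Named genes were the called genes, the 12 largest increases and 12 largest decreases among genes with a mean of at least 5 FPKM, no overlap and an unadjusted p under 0.05, the 2 members of each list with the smallest p, and a few maturation and cell cycle genes; the text gives a selection. Other list members are named because they did not overlap, and Itga7, Rxrg, Srebf1, Fasn, Bmp7, Ednra, Dlk1 and Myl7 were chosen after their values were seen. One list member without overlap is not reported here. Promoter windows were read from RefSeq (GRCm38.p6) by gene symbol. The scripts were tested on simulated data. Alternatives were another pseudocount, filter, scaling, set of libraries, weighting and replicate block, and leaving out each library. Tables and figures used Python 3.11.15, pandas 2.3.3, NumPy 2.4.6 and Matplotlib 3.10.9.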

Additional observations from a re-analysis of the deposited data

Results flagged for a closer look

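A closer look is due for 3 genes whose isolated change differed from the ventricle change by the limma test of the difference itself. Hif3a differed by 1.55 on the log2 scale, AC148014.1 by 1.39 and Gm17428 by -2.22. Hif3a was lower at P4 in both preparations, Gm17428 was lower at P4 in isolated cells and higher in ventricle, and AC148014.1 was listed at 0 in all isolated libraries. All 3 calls were lost with a pseudocount of 0.1, with median-of-ratios scaling, with quantile normalization, in a fit of the compared groups alone, and without either ventricle P4 library.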

How the results depend on the processing

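The number of called genes in isolated cells, 4, rested on the settings, and the cause was not tested. It was 1 with a pseudocount of 0.1, 9 without the filter on low values, 12 in a single fit over all 36 libraries and 99 with array weights. limma called 0 genes with a mean of at least 5 FPKM required (121 higher and 37 lower at an unadjusted p under 0.05), with only the compared groups (418 and 151), with the replicate block (246 and 127) and, as alternatives chosen after seeing the data, with P0 libraries 1 and 2 averaged (97 and 79) or averaged with only the compared groups (131 and 97). Leaving out single libraries gave 0 to 7 calls, with 0 without P4 library 1 (216 and 128) or P4 library 2 (380 and 145). Median-of-ratios scaling, quantile normalization, rescaling, no variance trend, a fold of at least 2, single zeros as missing and a fit without the day 7 resection group gave 3 to 5.

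In ventricle 218 genes became 135 with a pseudocount of 0.1, 119 with a mean of at least 5 FPKM, 332 with quantile normalization, 60 in the fit over all 36 libraries and 81 with a fold of at least 2, and 49 to 273 without single libraries. The 3 differences between preparations became 16 without the filter, 22 with array weights, 1 in the fit over all 36 libraries, 1 with P0 libraries averaged, and 0 with a pseudocount of 0.1 (181 positive and 56 negative at an unadjusted p under 0.05), a mean of at least 5 FPKM (121 and 22), median-of-ratios scaling (142 and 132), quantile normalization (152 and 177), only the compared groups (357 and 106) or both of the last and averaging (193 and 82); without single libraries they were 0 to 3. The 1088 genes without overlap became 1939 without the filter and 588 with a mean of at least 5 FPKM. Without single libraries they numbered 1349 to 4915, but fewer libraries separate more genes by a random order. Genes called in ventricle that did not overlap in isolated cells numbered 32 to 63 (higher) and 42 to 70 (lower) without single libraries.

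The labels do not say whether a replicate number links libraries of the 2 ages. Same-numbered libraries had correlations of deviations of -0.079, 0.345 and 0.444, the highest values for P4 libraries 2 and 3. P4 library 1 correlated best with P0 library 2 (0.075). Library 3 had the most Xist at both ages (62.5 FPKM at P4 and 63.7 FPKM at P0). Whether same-numbered libraries shared a batch was not tested. With the replicate block limma called 0 genes in isolated cells, 205 in ventricle and 2 for the difference. Over 104 named genes no called direction reversed, 10 genes changed sign while short of the threshold, and 23 passed under some alternative only. Mapt passed in 11 of 20 alternatives, Olfr609 in 10, and Hif3a and Olfr608 in 7 each. Depth is unknown from FPKM, and 3 libraries against 3, with P0 libraries 1 and 2 nearly alike, limit what could be detected.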
